A study of Macaca mulatta with 449 samples.

Results

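The genes described here are the opioid peptide precursors and their receptors, chosen by symbol: proenkephalin (PENK), prodynorphin (PDYN), prepronociceptin (PNOC) and the mu (OPRM1), delta (OPRD1), kappa (OPRK1) and nociceptin (OPRL1) receptors. Of these 7 genes, 6 had a row among the 30807 genes of the count table. OPRD1 was not analysed here, because no gene identifier could be matched to its symbol. The rows were ENSMMUG00000006775 (PENK), ENSMMUG00000009984 (PDYN), ENSMMUG00000007479 (PNOC), ENSMMUG00000022691 (OPRM1), ENSMMUG00000038011 (OPRK1) and ENSMMUG00000043739 (OPRL1).

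Each precursor protein is cut by convertases into short peptides that neurons release beside a fast transmitter: enkephalins from PENK, dynorphins from PDYN and nociceptin from PNOC. Their receptors couple to inhibitory G proteins, which open potassium channels, close calcium channels and inhibit adenylyl cyclase. Enkephalins act mainly at delta and mu receptors, dynorphins at the kappa receptor and nociceptin at its own receptor. In the striatum, enkephalin and dynorphin are classical labels of the indirect and direct output pathways.

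The study mapped gene expression over the brain of healthy rhesus macaques (Macaca mulatta) by RNA-seq after removal of ribosomal RNA, and the counts of 51 sub-regions in each of 8 animals were used. The animals came from a single source, with no genetic change or treatment, and keep the numbers of their labels. Young animals were 4 (female, 3.2 years), 7 (male, 4 years), 8 (male, 3.8 years) and 10 (female, 5 years), and mid-aged animals were 2 and 3 (males, 10 years), 6 (female, 10 years) and 11 (female, 9.8 years). The cortex contributed 31 sub-regions and the other 20 belonged to 15 region groups: striatum (STR), globus pallidus (GP), amygdala (AMY), hippocampus (HIP), thalamus (THA), hypothalamus (HTHA), pituitary (PIT), substantia nigra (SN), ventral tegmental area (VTA), pons (PON), medulla oblongata (MO), cerebellum (CB), olfactory bulb (OB), corpus callosum (CC) and the entorhinal with the perirhinal cortex (PA). Each sample was a small block of tissue holding many cell types, so fewer cells of a type and less RNA per cell cannot be told apart.

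The gene counts of a sample summed to 7784678 to 31083490 (median 10698602). Levels are given as CPM, the count relative to a library size scaled by the TMM method, and they compare places for 1 gene but not genes with each other, because transcript length was not divided out. Over all samples the median count was 390 for PENK, 554 for PDYN, 130 for PNOC, 35.5 for OPRM1, 10 for OPRK1 and 507 for OPRL1. OPRK1 had no read in 22 samples and OPRM1 in 4, which leaves the receptors' low values imprecise. Lists of regional marker genes were highest in their own region group in all 8 animals for the cortex, striatal medium spiny neurons, thalamus, hypothalamus, anterior pituitary, cerebellum, olfactory bulb, oligodendrocytes (CC) and dopamine neurons (SN). PROX1, the dentate gyrus marker, was highest in the CC in 6 of 8 animals and not in the HIP. No hindbrain marker of the list could be matched for the MO and PON.

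A few libraries stood apart. The GP library of animal 3 had a mean log2 level of 6.03 over 5 medium spiny neuron markers, against 2.90 to 4.08 in the GP of the other animals. The HTHA library of animal 6 had 6.28 over 4 cortex markers, against 1.49 to 2.24 in the others. The MO library of animal 6 had 4.46 over 3 choroid plexus markers, against 1.99 to 3.73 in the others. Cortex markers were also high in the accumbens nucleus (ACb) of animal 10 (5.32, against 0.70 to 3.22) and in the putamen (PUT) of animal 3 (4.503, against 0.64 to 1.57), both parts of the STR. The choroid plexus list was highest in the CC in 7 of 8 animals. It varied widely between animals in the CC (4.16 to 7.60), HIP (2.64 to 5.29), AMY (2.25 to 5.09) and THA (1.10 to 4.35). Its part in the comparisons of these groups was not tested. Comparisons of places that include the libraries of animals 3, 6 and 10 named here are given with and without them. For age stage and sex, leaving such a library out gave no call of an opioid gene in its region group.

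All 6 genes differed among the 51 sub-regions at FDR < 0.05 (edgeR's quasi-likelihood F test with Benjamini-Hochberg adjustment, animal as a block), but so did 99.5% of the 17121 genes tested. Sub-region accounted for 90.1% of the variance of log2(CPM + 1) for OPRL1, 88.8% for PDYN, 88.4% for PENK, 87.1% for PNOC, 75.7% for OPRK1 and 50.1% for OPRM1. The animal accounted for 14.7% for OPRM1 and for at most 2.55% for the other 5 genes. Over the 51 sub-regions OPRM1 thus had the lowest share for place and the highest for the animal, while over the 31 cortical ones the animal's share was 31.7% for OPRM1 and 44.1% for PENK.

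**Figure D1:**
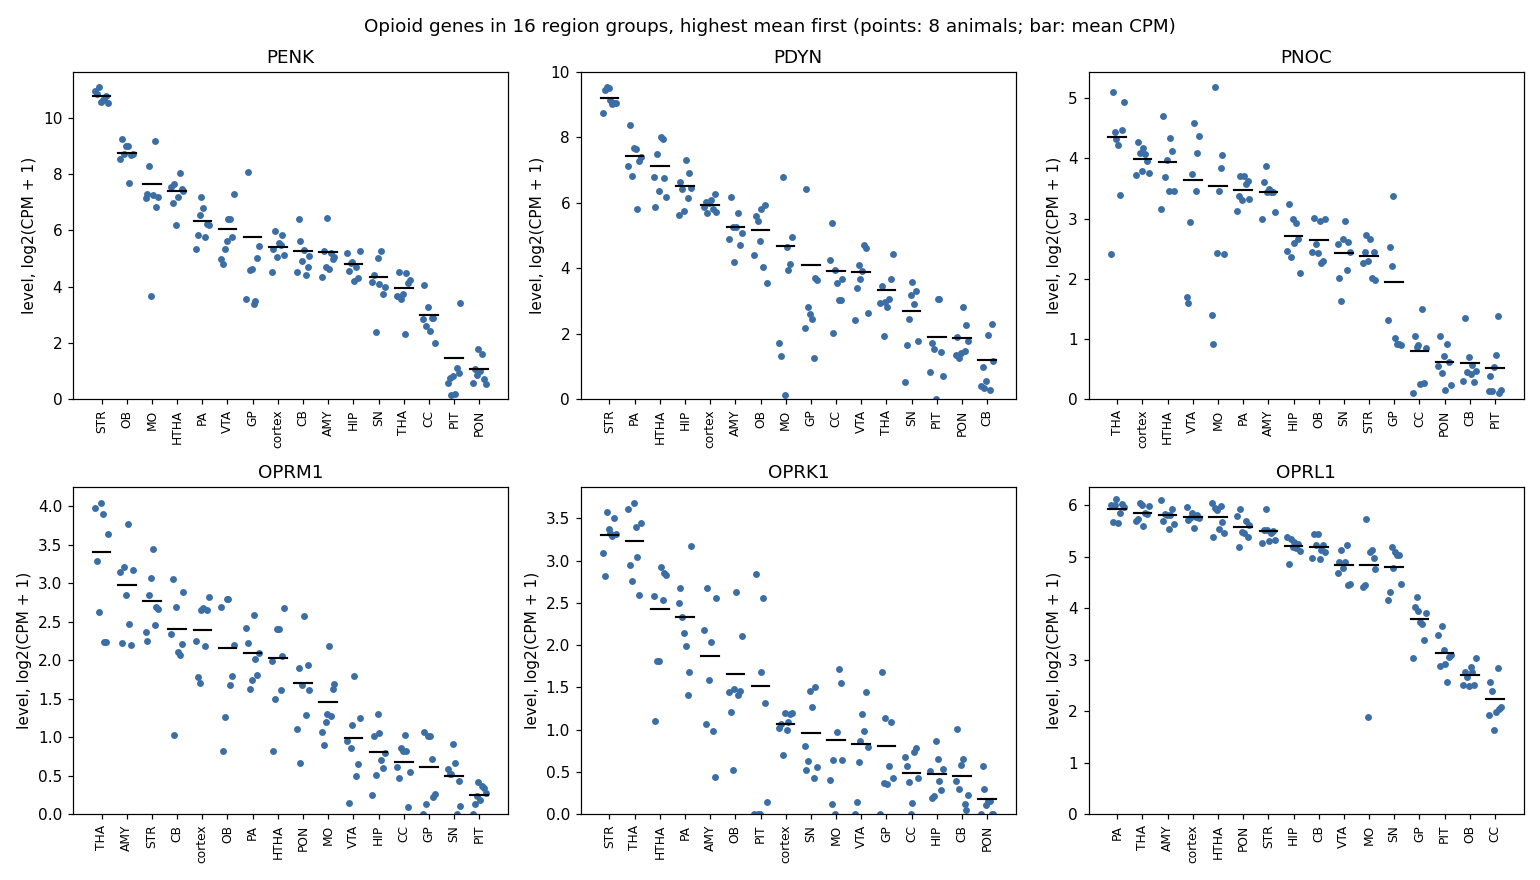
Levels of the 6 opioid genes as log2(CPM + 1) in 16 region groups, ordered by mean level; each point is 1 of 8 animals and the bar is the mean CPM on the same scale. PENK and PDYN were highest in the STR (1747 and 592 CPM), OPRM1 and PNOC in the THA (9.64 and 19.4 CPM), and OPRL1 lay between 53.3 and 59.5 CPM in the PA, THA, AMY, cortex and HTHA.

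PENK, the enkephalin precursor, had its highest levels in the STR, where the 8 animals lay between 1484 and 2185 CPM (median 1686). The OB followed with 207 to 610 CPM (median 424), the MO with 11.6 to 578 CPM (median 148) and the HTHA with 72.9 to 264 CPM (median 171). The STR was above every other region group in all 8 animals, with no overlap. The cortex held 21.7 to 62.4 CPM (median 41.5). At the other end, PENK was at 0.0904 to 9.71 CPM in the PIT (median 0.735) and at 0.427 to 2.45 CPM in the PON (median 0.917), where no library had more than 31 reads. In the PIT, 7 of 8 animals lay between 0.0904 and 1.17 CPM, and animal 11 alone gave the highest value.

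PDYN, the dynorphin precursor, was also highest in the STR, at 423 to 736 CPM (median 549). The PA followed with 55.1 to 330 CPM (median 161), the HTHA with 57.7 to 258 CPM (median 108), the HIP with 48.5 to 159 CPM (median 84.7) and the cortex with 50.8 to 75.3 CPM (median 59.9). The STR did not overlap with any of them, while the PA, HTHA, HIP and cortex overlapped with each other. The CB was lowest, at 0.219 to 3.89 CPM (median 0.706), and the PON held 1.405 to 5.98 CPM (median 2.09). PENK and PDYN thus parted in the CB, where PENK was at 20.1 to 84.7 CPM, within its cortical range in most animals, and PDYN was near its floor.

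PNOC, the nociceptin precursor, followed another order. It was highest in the THA, at 4.31 to 33.4 CPM (median 19.9), then in the cortex at 12.2 to 18.4 CPM (median 15.2) and the HTHA at 7.93 to 25.1 CPM (median 13.3). These 3 groups overlapped widely. The STR, which led for the other precursors, held only 2.93 to 5.64 CPM (median 4.17) and ranked below 10 other groups. The PIT, CB, PON and CC held the lowest levels, with medians between 0.202 and 0.810 CPM and at most 25 reads in any of their libraries.

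OPRM1, the mu receptor through which morphine acts, was highest in the THA at 3.70 to 15.6 CPM (median 10.2), in the AMY at 3.60 to 12.7 CPM (median 7.05) and in the STR at 3.76 to 9.93 CPM (median 5.39). The animals of these groups overlapped with each other and with the cortex (2.26 to 6.10 CPM, median 4.52). The HIP was low, at 0.194 to 1.47 CPM (median 0.682), and so were the GP, SN and PIT, with medians of 0.421, 0.436 and 0.197 CPM. The HIP lay below the cortex in every animal, without overlap.

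OPRK1, the dynorphin receptor, was highest in the STR at 6.05 to 11.0 CPM (median 9.01) and in the THA at 5.02 to 11.9 CPM (median 8.42). The HTHA held 1.15 to 6.62 CPM (median 4.89), the PA 1.66 to 8.00 CPM (median 3.74) and the cortex 0.624 to 1.29 CPM (median 1.11). The STR and THA overlapped almost fully, and both lay above the cortex in every animal. In the PIT the animals ranged from no read in 3 animals to 6.16 CPM in animal 3. The PON was lowest, with a median of 0.0953 CPM and at most 5 reads in a library.

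OPRL1, the nociceptin receptor, had similar levels in much of the forebrain. Its medians lay between 53.1 and 62.2 CPM in the PA, THA, AMY, cortex and HTHA, at 45.7 CPM in the PON and at 43.6 CPM in the STR. The MO ranged from 2.69 CPM in animal 6 to 52.2 CPM in animal 4. Low levels were found in the GP (7.18 to 17.6 CPM, median 13.1), the PIT (4.90 to 11.6 CPM, median 7.37), the OB (4.63 to 7.13 CPM, median 5.54) and the CC (2.11 to 6.12 CPM, median 3.18). The OB was thus among the highest places for PENK and among the lowest for OPRL1, and its animals lay below every animal of the cortex.

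No 2 region groups that followed each other in the order of a gene's mean level passed the adjustment over the 15 pairs of that gene (exact sign-flip permutation test over 8 animals, two-sided). The smallest p that 8 animals allow is 0.00781, and a single pair at that value reaches only 0.117 after adjustment, so groups that did not overlap, such as the STR and OB for PENK, could miss it too. Before adjustment, p was under 0.05 for 6 of 15 pairs for OPRL1, 5 for PENK, 4 for PDYN, 3 for OPRK1, 2 for PNOC and 1 for OPRM1. The largest of these steps were from the STR to the OB for PENK (difference of 2.05 ± 0.50 in log2(CPM + 1), SD, n = 8 animals, adjusted p of the exact permutation test 0.0781) and from the STR to the PA for PDYN (1.93 ± 0.69, adjusted p of the exact permutation test 0.117), each in 8 of 8 animals.

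The STR was compared with the cortex first, and PENK, PDYN and OPRK1 were all higher there. A gene was called at FDR < 0.05 and a fold above 2 in edgeR's quasi-likelihood test, with the animal as a block. Of the 6 genes, 3 were higher in the STR and 1 was lower, against 16.9% of all 16829 genes tested, 8.73% higher and 8.18% lower. PENK was 42.2-fold higher (log2FC 5.40 ± 0.47, SE, FDR = 6.48e-19), PDYN was 9.73-fold higher (3.28 ± 0.49, FDR = 6.37e-09) and OPRK1 was 8.33-fold higher (3.06 ± 0.43, FDR = 9.51e-10). All 3 were higher in 8 of 8 animals. PNOC was lower in all 8 animals (log2FC -1.84 ± 0.35, FDR = 4.55e-06), while OPRM1 (0.46 ± 0.26, FDR = 0.134) and OPRL1 (-0.30 ± 0.16, FDR = 0.108) did not pass. All 4 calls held without animal 3 (5.39 for PENK, 3.27 for PDYN, 3.12 for OPRK1 and -1.81 for PNOC) and without animal 10 (5.49, 3.34, 3.07 and -1.85). The oligodendrocyte markers were at a mean log2 level of 8.65 to 9.41 in the STR and of 7.23 to 7.62 in the cortex, and their part in these differences was not tested. The median log2FC was 1.76 over the 6 genes and 0.01 over all genes tested.

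Of 37 other genes of opioid signalling, from lists of peptide processing, enkephalin-degrading peptidases, G proteins and RGS proteins, effectors, receptor kinases and arrestins, and the remaining opioid precursor, 4 were higher in the STR than in the cortex, 8 were lower and 25 were not called, where 8.73% of all genes were higher and 8.18% lower. The 4 higher genes were MME, the peptidase neprilysin that cleaves enkephalins (98.0 ± 28.3 against 2.65 ± 0.28 CPM, SD, n = 8), RGS9, a regulator that speeds the shut-off of G proteins (176 ± 24.1 against 2.84 ± 0.36 CPM), ADCY5, an adenylyl cyclase (1015 ± 129 against 106 ± 6.47 CPM), and RGS20, another regulator of the same family. The lower genes included the channel subunits KCNJ3, KCNJ5 and KCNJ6, of which KCNJ3 held 5.48 ± 1.64 CPM against 71.4 ± 16.2 CPM, and the convertase PCSK1 (90.4 ± 12.2 against 314 ± 52.0 CPM). ADCY8, RGS4, GRK2 and GRK3 were the other lower genes. The median log2FC over the 37 genes was -0.17.

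Within the STR, the 3 sub-regions differed in the opioid genes. PDYN held 651 to 1006 CPM (median 709) in the ACb, 434 to 1073 CPM (median 783) in the caudate nucleus (CN) and 53.7 to 506 CPM (median 118) in the PUT. In every animal the PUT was lowest, and only animals 4 and 6 exceeded 200 CPM there. PENK held 1166 to 2299 CPM (median 1755) in the ACb, 1974 to 2425 CPM (median 2288) in the CN and 723 to 1986 CPM (median 1141) in the PUT. OPRK1 held 3.23 to 12.5 CPM (median 8.73), 8.63 to 17.2 CPM (median 13.1) and 2.56 to 6.68 CPM (median 4.18) in the same order, and the CN and PUT did not overlap.

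Between the CN and PUT, 3 of 6 genes were called, all higher in the CN, against 4.82% of all genes tested, 3.26% higher and 1.56% lower. PDYN was 5.42-fold higher (log2FC 2.44 ± 0.29, FDR = 3.60e-06), OPRK1 was 2.85-fold higher (1.51 ± 0.26, FDR = 0.000235) and OPRM1 was 2.09-fold higher (1.07 ± 0.37, FDR = 0.0359). The first 2 were higher in 8 of 8 animals and OPRM1 in 7. PENK (0.99 ± 0.15, FDR = 4.36e-05) and OPRL1 (0.65 ± 0.09, FDR = 2.98e-05) passed the FDR and stayed below a fold of 2, as did PNOC in the other direction (-0.56 ± 0.20, FDR = 0.0431). The call of OPRM1 was lost without the replicate block (log2FC 0.88, FDR = 0.138) and without animal 3 (0.93, FDR = 0.103), 4 (0.86, FDR = 0.109), 6 (1.17, FDR = 0.0545) or 11 (1.02, FDR = 0.0818). PENK crossed a fold of 2 without animal 3 (1.02), 4 (1.10) or 10 (1.04). Without animal 3, whose PUT library held cortex markers, PDYN was at 2.48 and OPRK1 at 1.53, both still called. The medium spiny neuron markers were higher in the PUT than in the CN in all 8 animals, with mean log2 levels of 8.59 to 9.25 and 8.49 to 8.99 (7.90 to 8.48 in the ACb). The 5 oligodendrocyte markers were at 9.43 to 10.3 in the PUT and at 7.86 to 8.81 in the CN, and their part in these differences was not tested.

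**Figure D2:**
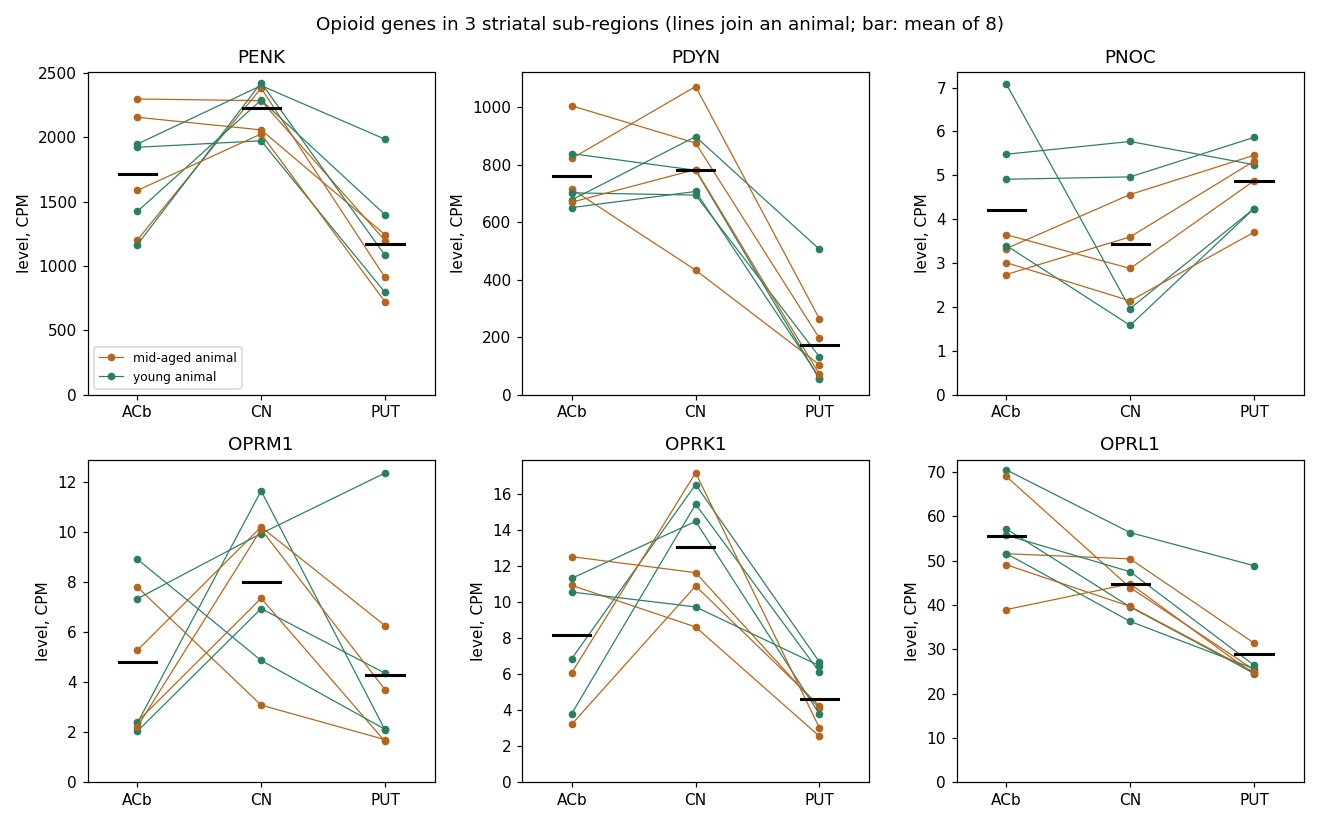
Levels in CPM of the 6 opioid genes in the accumbens nucleus (ACb), caudate nucleus (CN) and putamen (PUT); lines join the samples of an animal and the bar is the mean of 8. PDYN fell from 781 CPM in the CN to 173 CPM in the PUT in every animal's line, and OPRK1 from 13.1 to 4.63 CPM.

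The ACb against the mean of the CN and PUT gave 1 call among the 6 genes, against 5.14% of all genes tested, 3.05% higher and 2.09% lower. PDYN passed with a fitted fold of 2.37 (log2FC 1.24 ± 0.23, FDR = 0.000199), and its mean CPM was the higher in the ACb in 7 of 8 animals. The fit averaged the CN and PUT on the log scale, and PDYN was at 761 ± 121 CPM in the ACb, at 781 ± 186 CPM in the CN and at 173 ± 152.95 CPM in the PUT (SD, n = 8). All 8 ACb samples lay above all PUT samples and inside the range of the CN samples (434 to 1073 CPM), so the mean of the ACb was above that of the PUT and not above that of the CN. Without animal 10, whose ACb library held cortex markers, PDYN was at 1.24 and still called, as it was without animal 3 (1.24). OPRL1 held 38.98 to 70.5 CPM in the ACb and was higher there in 8 of 8 animals (0.64 ± 0.08, FDR = 2.32e-06), below a fold of 2. PENK did not pass (0.10 ± 0.13, FDR = 0.551). Of 35 genes of the opioid signalling lists tested, 3 were lower in the ACb and none was higher, MME among them with 21.6 ± 15.4 CPM in the ACb against 137 ± 37.0 CPM (SD, n = 8). Between the CN and PUT, PCSK1 alone of these lists was called (141 ± 38.8 against 51.02 ± 9.62 CPM).

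The GP, which receives the output of the STR, was compared with it next. Of the 6 genes, 5 were lower in the GP, against 29.6% of all genes called, 14.3% higher and 15.3% lower. PDYN was 45.9-fold lower (log2FC -5.52 ± 0.56, FDR = 5.86e-16), PENK 41.8-fold lower (-5.38 ± 0.48, FDR = 8.90e-19), OPRK1 12.6-fold lower (-3.65 ± 0.51, FDR = 5.34e-10), OPRM1 11.6-fold lower (-3.54 ± 0.36, FDR = 1.16e-15) and OPRL1 3.44-fold lower (-1.78 ± 0.17, FDR = 1.08e-16). PENK in the GP was 9.43 to 42.5 CPM in 7 animals and 271 CPM in animal 3, whose library held more of the medium spiny neuron markers. Without animal 3 the log2FC was -6.39 for PENK and -6.54 for PDYN, and without animal 10 it was -5.31 and -5.52. The 5 calls held in both fits. OPRM1 and OPRK1 had at most 11 and 20 reads in a GP library, so their folds are imprecise. The oligodendrocyte markers were at a mean log2 level of 11.4 to 12.3 in the GP and of 8.65 to 9.41 in the STR, with no overlap, and their part in these differences was not tested. PNOC was not called (-0.66 ± 0.39, FDR = 0.127) but was lower by the same rule without animal 6 (-1.28, FDR = 0.00809). The 37 opioid signalling genes gave 15 lower and 2 higher calls in the GP.

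**Figure D3:**
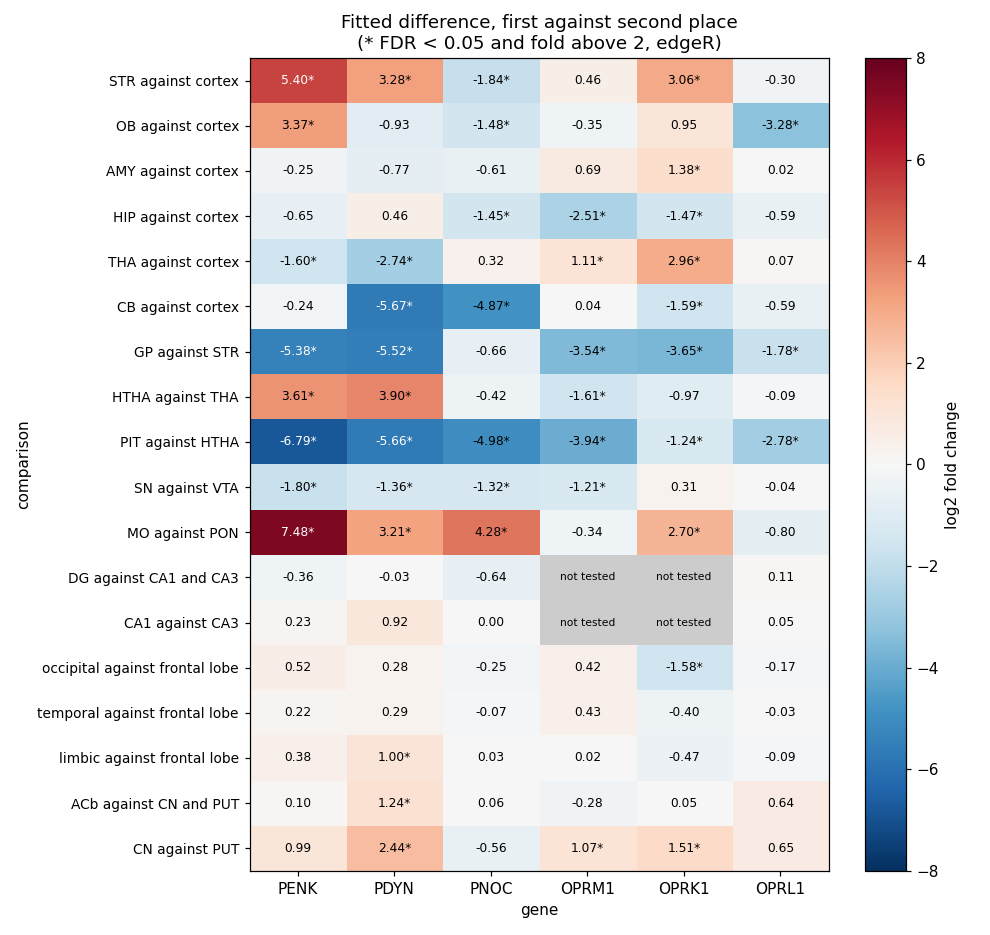
Fitted log2 fold changes of the 6 opioid genes in 18 comparisons of places, as coloured cells from -8 to 8 with the value printed; an asterisk marks FDR < 0.05 with a fold above 2 and grey cells were not tested. The highest cell is PENK in the MO against the PON (7.48) and the lowest is PENK in the PIT against the HTHA (-6.79).

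In the OB, 1 gene was higher than in the cortex and 2 were lower, against 22.5% of all genes called, 12.5% higher and 9.94% lower. PENK was 10.3-fold higher (log2FC 3.37 ± 0.43, FDR = 2.25e-11) and OPRL1 was 9.69-fold lower (-3.28 ± 0.19, FDR = 2.66e-31), each without overlap of the 8 animals. PNOC was 2.79-fold lower (-1.48 ± 0.36, FDR = 0.000168). OPRK1 was at a log2FC of 0.95 ± 0.44 (FDR = 0.0499) and crossed a fold of 2 without animal 3 (1.01, FDR = 0.0337) or 4 (1.02, FDR = 0.0473). Of the 37 opioid signalling genes, 4 were higher in the OB, 6 were lower and 27 were not called, with a median log2FC of -0.31. The higher genes were the peptidases MME (75.8 CPM against 2.65 CPM, log2FC 4.83), ANPEP and ENPEP, and RGS9.

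In the THA, 2 genes were higher than in the cortex and 2 were lower, against 19.7% of all genes called, 9.81% higher and 9.92% lower. Both higher genes were receptors: OPRK1 (7.80-fold, log2FC 2.96 ± 0.43, FDR = 2.91e-09, in 8 of 8 animals) and OPRM1 (2.16-fold, 1.11 ± 0.27, FDR = 0.000241, in 7 of 8 animals). Both lower genes were precursors: PDYN (-2.74 ± 0.50, FDR = 1.44e-06) and PENK (-1.60 ± 0.42, FDR = 0.000646), lower in all 8 animals. PNOC, which had its highest mean in the THA, did not pass against the cortex (0.32 ± 0.34, FDR = 0.432). OPRL1, the other receptor tested, did not pass either (0.07 ± 0.16, FDR = 0.744). Without animal 2, OPRM1 was below a fold of 2 (0.93, FDR = 0.00348). The oligodendrocyte markers were at a mean log2 level of 9.47 to 10.4 in the THA and of 7.23 to 7.62 in the cortex, and their part in these differences was not tested.

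In the HIP, 3 genes were lower than in the cortex and none was higher, against 12.4% of all genes called, 6.05% higher and 6.31% lower. OPRM1 was 5.69-fold lower (log2FC -2.51 ± 0.30, FDR = 4.94e-12), OPRK1 2.78-fold lower (-1.47 ± 0.47, FDR = 0.00753) and PNOC 2.73-fold lower (-1.45 ± 0.35, FDR = 0.000276), each in 8 of 8 animals. OPRL1 was lower by less than a fold of 2 (-0.59 ± 0.16, FDR = 0.00179). PDYN and PENK did not pass (0.46 ± 0.45, FDR = 0.422, and -0.65 ± 0.40, FDR = 0.185).

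Inside the HIP, PDYN held 72.2 to 255 CPM (median 99.8) in CA1, 29.1 to 102 CPM (median 57.5) in CA3 and 36.9 to 122 CPM (median 83.2) in the dentate gyrus (DG). CA1 was above CA3 in 8 of 8 animals (log2FC 0.92 ± 0.14, FDR = 0.0129), but below a fold of 2, except without animal 11 (1.02, FDR = 0.0109). In edgeR's test 0 of the 4 genes with enough reads were called between CA1 and CA3, where 3 of 14796 genes were (0.0203%, with 0.00676% higher and 0.0135% lower in CA1), and 0 of 4 between the DG and the CA fields (3.18% of all genes, 0.872% higher and 2.31% lower in the DG). DESeq2 also called 0 in both. At an unadjusted p under 0.05 there was 1 of 4 genes in each comparison, PDYN in the first, against 6.87% of all genes, and PNOC in the second, against 48.3%. PNOC was lower in the DG in all 8 animals, below a fold of 2 (-0.64 ± 0.17, FDR = 0.00611). OPRM1 and OPRK1 had at most 26 and 13 reads in a hippocampal library and were not tested there. With a filter of a count above 1 in at least 3 columns, 1 of them was called between the DG and the CA fields. Calls over all genes rose from 471 to 732 with that filter. PROX1 was at a log2 level of 3.88 to 6.09 in the DG, 2.51 to 4.67 in CA1 and 2.80 to 4.93 in CA3, so the sub-regions overlapped in this marker.

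In the AMY, only OPRK1 was called against the cortex (log2FC 1.38 ± 0.44, FDR = 0.0083), against 9.54% of all genes, 5.03% higher and 4.5% lower. It held 0.360 to 5.38 CPM (median 2.56) in the AMY, overlapping the cortex, and was higher in 6 of 8 animals. The call was lost without animal 4 (1.02, FDR = 0.0770). OPRM1 was higher in 7 of 8 animals by less than a fold of 2 (0.69 ± 0.27, FDR = 0.0367).

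In the CB, 3 genes were lower than in the cortex, against 25.7% of all genes called, 10.8% higher and 14.9% lower. PDYN was 50.8-fold lower (log2FC -5.67 ± 0.59, FDR = 3.13e-15), PNOC 29.3-fold lower (-4.87 ± 0.44, FDR = 1.20e-18) and OPRK1 3.01-fold lower (-1.59 ± 0.50, FDR = 0.00374), all in 8 of 8 animals. PNOC and OPRK1 had at most 25 and 22 reads in a CB library, so their folds are imprecise. OPRL1 was lower in all 8 animals by less than a fold of 2 (-0.59 ± 0.16, FDR = 0.00094). PENK (-0.24 ± 0.40, FDR = 0.598) and OPRM1 (0.04 ± 0.27, FDR = 0.902) did not pass. Animal 3 gave the highest PENK and PNOC values of the CB, and without it the log2FC was -0.45 for PENK, -5.30 for PNOC and -2.04 for OPRK1. Of the 37 opioid signalling genes, 8 were lower and 2 higher in the CB, and the lower ones included PCSK1, the convertase that starts the cutting of precursors (2.12 CPM against 314 CPM, log2FC -7.23).

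Between the HTHA and THA, PENK and PDYN were higher in the HTHA and OPRM1 was higher in the THA. Of the 6 genes, 2 were higher in the HTHA and 1 was lower, against 14.2% of all genes called, 9.15% higher and 5% lower. PDYN was 15.0-fold higher (log2FC 3.90 ± 0.53, FDR = 4.14e-10) and PENK 12.2-fold higher (3.61 ± 0.45, FDR = 1.84e-11), in 8 of 8 animals without overlap, and OPRM1 was 3.06-fold lower (-1.61 ± 0.29, FDR = 1.85e-06). OPRK1 was not called (-0.97 ± 0.43, FDR = 0.0548) except without animal 10 (-1.15, FDR = 0.0361). Without animal 6, whose HTHA library held cortex markers, the log2FC was 3.94 for PDYN, 3.68 for PENK and -1.58 for OPRM1. Of the 37 opioid signalling genes, 6 were higher in the HTHA and 3 were lower. PCSK1 was among the higher ones (308 ± 100.2 against 59.6 ± 15.4 CPM, SD, n = 8), and so was POMC, the precursor of beta-endorphin (12.4 ± 8.45 against 1.79 ± 0.67 CPM).

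All 6 genes were lower in the PIT than in the HTHA, against 37.7% of all genes called, 16% higher and 21.7% lower. The log2FC was -6.79 ± 0.56 for PENK (FDR = 4.03e-21), -5.66 ± 0.59 for PDYN (FDR = 1.60e-15), -4.98 ± 0.49 for PNOC (FDR = 1.11e-16), -3.94 ± 0.44 for OPRM1 (FDR = 7.11e-14), -2.78 ± 0.18 for OPRL1 (FDR = 1.63e-27) and -1.24 ± 0.47 for OPRK1 (FDR = 0.0132). The first 5 did not overlap between the 2 groups, and OPRK1 did. OPRM1 had at most 4 reads in a PIT library, so its log2FC is imprecise. Single animals moved these values: PENK was at -8.15 without animal 11, PNOC at -5.70 without animal 8, and OPRK1 at -1.89 without animal 3. The call of OPRK1 was lost without animal 2 (-1.01, FDR = 0.0569) or 11 (-0.99, FDR = 0.0727). Without animal 6, whose HTHA library held cortex markers, all 6 were still called, with -6.84 for PENK, -5.59 for PDYN and -1.16 for OPRK1 (FDR = 0.0252). The oligodendrocyte markers were at a mean log2 level of 1.71 to 2.82 in the PIT and of 7.67 to 10.9 in the HTHA, and their part in these differences was not tested. Of the 37 opioid signalling genes, 7 were higher in the PIT and 8 were lower. POMC was higher, with 8459 ± 1677 CPM in the PIT against 12.4 ± 8.45 CPM in the HTHA (log2FC 9.50 ± 0.38, FDR = 8.01e-45). It is also 1 of the 4 anterior pituitary markers, which were highest in the PIT in all 8 animals.

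The MO and PON, neighbours in the hindbrain, differed in 4 of 6 genes, all higher in the MO, against 11.7% of all genes called, 8.2% higher and 3.45% lower. PENK held 11.6 to 578 CPM (median 148) in the MO and 0.427 to 2.45 CPM (median 0.917) in the PON, with no overlap, and was 178-fold higher (log2FC 7.48 ± 0.59, FDR = 2.02e-20). PNOC was 19.4-fold higher (4.28 ± 0.50, FDR = 4.55e-12, in 7 of 8 animals), PDYN 9.25-fold (3.21 ± 0.59, FDR = 3.30e-06, in 6 of 8) and OPRK1 6.51-fold (2.70 ± 0.86, FDR = 0.00675, in 6 of 8). The counts of OPRK1 were low in both groups, with at most 26 reads in an MO library. OPRL1 was lower in the MO in all 8 animals by less than a fold of 2 (-0.80 ± 0.17, FDR = 4.77e-05).

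Values within the MO were widely spread. PDYN was at 109 CPM in animal 4, 30.3 CPM in animal 11 and 0.0815 CPM in animal 6, and PNOC at 35.4 CPM in animal 4 and 0.873 CPM in animal 3. The MO library of animal 6, with more choroid plexus markers, had the lowest PENK, PDYN and OPRL1 values of the MO. Without animal 6 the log2FC was 7.97 for PENK, 3.36 for PDYN and 4.41 for PNOC. Without animal 4 it was 2.20 for PDYN and 3.69 for PNOC, and without animal 3 it was 3.64 for OPRK1. The calls held in each of these fits.

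The SN and VTA hold the dopamine neurons of the ventral midbrain. Of the 6 genes, 4 were lower in the SN, against 5.91% of all genes called, 2.59% higher and 3.32% lower. PENK held 4.18 to 37.2 CPM (median 16.5) in the SN and 26.97 to 158 CPM (median 50.6) in the VTA (log2FC -1.80 ± 0.42, FDR = 0.000468), and was lower in the SN in 8 of 8 animals. PNOC was lower in 6 of 8 animals (-1.32 ± 0.38, FDR = 0.0043). PDYN (-1.36 ± 0.54, FDR = 0.0453) and OPRM1 (-1.21 ± 0.45, FDR = 0.0337) passed narrowly. Without the replicate block neither did (FDR = 0.0779 and 0.0581). PDYN lost its call without animal 2 (FDR = 0.0930), 4 (0.0702), 7 (0.0506), 8 (0.123), 10 (0.0881) or 11 (0.0795), and OPRM1 without animal 7 (0.158), 8 (0.0683) or 11 (0.167). OPRL1 and OPRK1 did not pass. OPRM1 had at most 10 reads in an SN library and 25 in a VTA library. The dopamine neuron markers were at a mean log2 level of 8.44 to 9.74 in the SN and of 3.13 to 6.90 in the VTA, the oligodendrocyte markers were at 9.82 to 10.8 and 11.2 to 11.7, and their part in these differences was not tested.

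Within the cortex, all 6 genes differed among the 31 sub-regions at FDR < 0.05, as did 75% of the 15981 genes tested. The F statistic of PDYN (27.6) was above that of 97.0% of the genes, and that of OPRM1 (1.65, FDR = 0.0321) above 27.3%. Sub-region accounted for 75.7% of the cortical variance of PDYN and the animal for 7.00%. For PENK it was the other way round, with 33.1% for sub-region and 44.1% for the animal. The means of OPRL1 spanned 45.9 to 58.3 CPM over the 31 cortical sub-regions.

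PDYN was highest in the hippocampal gyrus (HG, 133 ± 28.7 CPM, SD, n = 8), the anterior cingular gyrus (ACG, 107 CPM) and the fusiform gyrus (FG, 80.6 CPM). It was lowest in the superior and inferior precentral gyrus (SPrCG, 14.2 ± 4.10 CPM, and IPrCG, 14.6 CPM), the motor strip, and in the posterior superior frontal gyrus (SFG, 27.2 CPM). The means of the HG and SPrCG differed 9.33-fold. The limbic cortex held 71.2 to 119 CPM (median 98.3) and the frontal lobe 38.1 to 62.03 CPM (median 43.04), with no overlap of the 8 animals. PDYN was the gene called in this comparison (1 of 6, against 0.641% of all genes, 0.32% in each direction), at a log2FC of 1.00 ± 0.10 (FDR = 6.48e-09). It lies at the limit of a fold of 2 and fell below it without animal 2 (0.998), 6 (0.960) or 8 (0.992), with an FDR of at most 2.69e-07 in each.

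OPRK1 was lower in the occipital than in the frontal lobe. The frontal lobe held 0.901 to 1.78 CPM (median 1.54) and the occipital lobe 0.231 to 0.675 CPM (median 0.488), with no overlap. It was 2.99-fold lower in the occipital lobe (log2FC -1.58 ± 0.19, FDR = 5.04e-09), the only call among the 6 genes, against 7.81% of all genes, 2.02% higher and 5.79% lower. OPRK1 had a median count of 10 over all samples, so its low levels are imprecise. The highest means were in the ACG (2.13 ± 0.96 CPM), the insula (1.94 CPM) and the SPrCG (1.91 CPM), and the lowest in the posterior superior occipital gyrus (0.388 ± 0.163 CPM) and the inferior occipital gyrus (0.4001 CPM). The SPrCG was thus the lowest cortical sub-region for PDYN and the third highest for OPRK1.

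**Figure D4:**
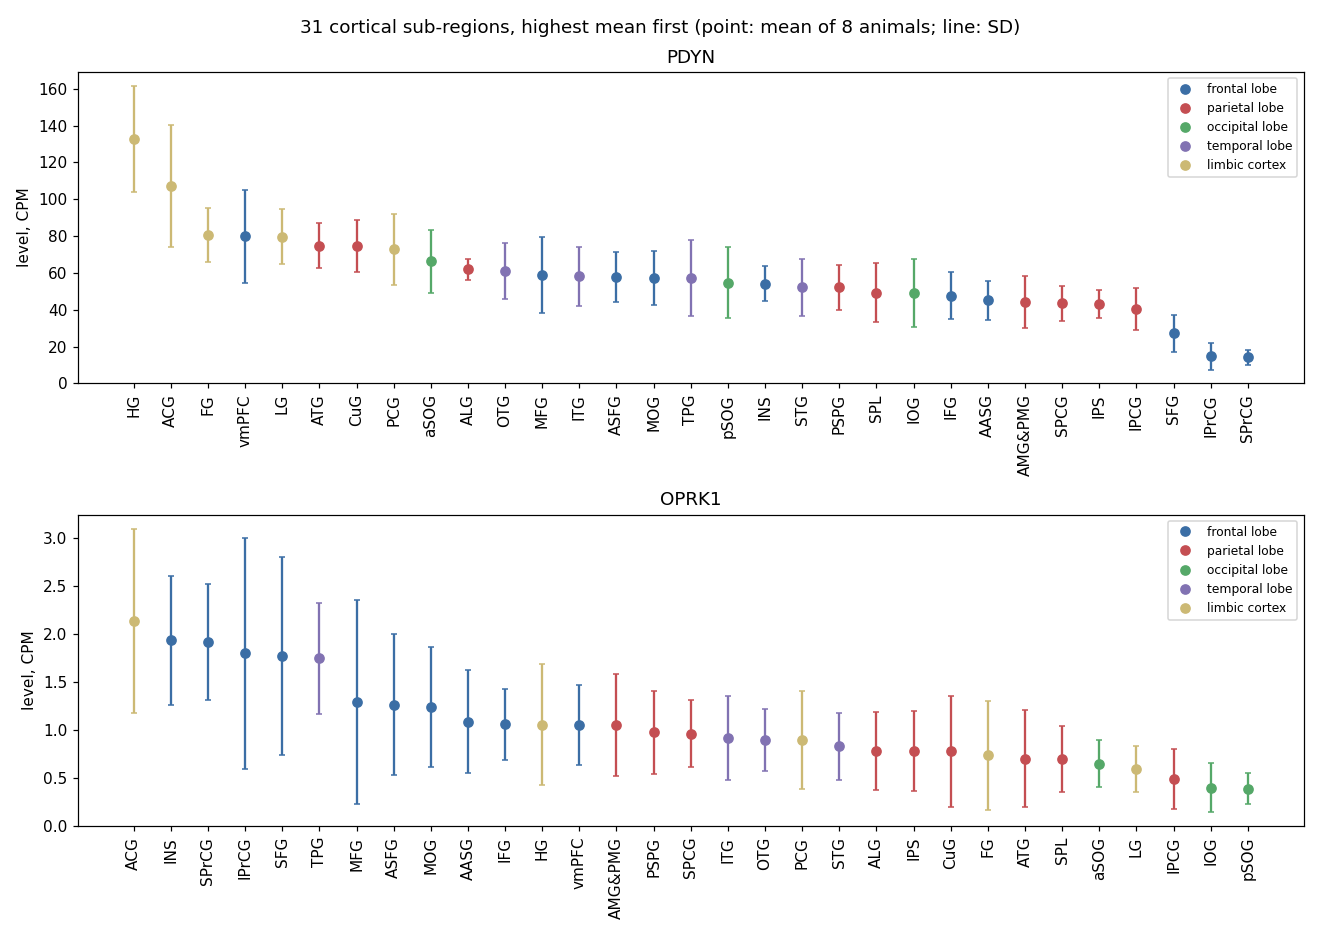
Mean level in CPM (point) and SD over 8 animals (line) of PDYN and OPRK1 in 31 cortical sub-regions, ordered by mean and coloured by lobe. PDYN ran from 133 CPM in the HG to 14.2 CPM in the SPrCG, and OPRK1 from 2.13 CPM in the ACG to 0.388 CPM in the pSOG.

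PENK was higher in the occipital than in the frontal lobe in 8 of 8 animals by less than a fold of 2 (27.2 to 84.5 CPM, median 52.3, against 17.5 to 52.4 CPM, median 37.3; log2FC 0.52 ± 0.10, FDR = 4.52e-05). PNOC and OPRL1 were slightly lower there (-0.25 ± 0.08, FDR = 0.00966, and -0.17 ± 0.06, FDR = 0.0104). OPRM1 and PDYN were at a log2FC of 0.42 and 0.28. Of the 6 genes, 5 passed FDR < 0.05 alone, a share that was not computed over all genes. No opioid gene was called between the temporal and frontal lobes (0 of 6 in edgeR and 0 in DESeq2, against 0.772% of all genes, 0.275% higher and 0.498% lower). There 4 of the 6 genes had an unadjusted p under 0.05, PENK, PDYN, OPRM1 and OPRK1, as did 22.5% of all genes, and the log2FC ranged from -0.40 for OPRK1 to 0.43 for OPRM1. PNOC had its highest cortical means in the ACG (20.5 ± 7.02 CPM) and the posterior cingular gyrus (20.1 CPM).

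Age stage and sex were compared inside each region group with 4 animals against 4. None of the 78 tested pairs of a gene and a region group passed FDR < 0.1 with a fold above 2 for age in edgeR's test, where 0.0164% of all 243260 pairs did. At an unadjusted p under 0.05 there were 13 of these 78 pairs, against 5.73% of all pairs. DESeq2 called 801 of all pairs, where edgeR called 40. The 5 opioid pairs that DESeq2 called were PNOC in the MO and PDYN in the CC (1.56, adjusted p = 0.0101), HTHA (-1.24, adjusted p = 0.0273), PIT (-2.32, adjusted p = 0.00645) and VTA (-1.36, adjusted p = 0.0997). The lowest FDR was that of PNOC in the MO (0.141), where young animals held 9.97, 13.3, 15.7 and 35.4 CPM and mid-aged animals 0.873, 1.64, 4.30 and 4.402 CPM. The stages did not overlap there (log2FC mid-aged against young -2.87 ± 0.36), the call was made without animal 10 (-3.14, FDR = 0.0662) or 11 (-2.93, FDR = 0.0685), and DESeq2 gave an adjusted p of 3.48e-10. Without animal 6 it was not called (-2.94, FDR = 0.125).

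PENK in the cortex did not overlap between the stages either: 43.6, 45.5, 55.7 and 62.4 CPM in young animals and 21.7, 31.9, 33.97 and 39.4 CPM in mid-aged ones (log2FC -0.69 ± 0.17, FDR = 0.633). The same held for OPRL1 in the SN and MO, PNOC in the PA and PDYN in the VTA, all lower in mid-aged animals. It also held for OPRM1 in the CB and PDYN in the CC, both higher in mid-aged animals. The share of all genes without overlap was not computed. PDYN accounted for 5 of the 13 pairs, 4 with lower values in mid-aged animals (HTHA, PIT, VTA and MO) and 1 with higher values (CC). In the HTHA it was at 106, 180, 246 and 258 CPM in young animals and at 57.7, 70.7, 80.3 and 110 CPM in mid-aged ones (log2FC -1.25 ± 0.26, FDR = 1.000 in edgeR's test and adjusted p = 0.0273 in DESeq2), with an overlap of 1 animal of each stage. Without animal 6 the log2FC was -1.35 (FDR = 1.000 in edgeR's test). The 3 hypothalamus markers were at a mean log2 level of 8.25 to 9.61 in the HTHA of young animals and of 4.24 to 8.36 in that of mid-aged animals, and their part in this difference was not tested. OPRM1 was called higher in the THA of mid-aged animals only without animal 7 (1.66, FDR = 0.0108). In that fit the age calls over all genes rose from 40 to 927 pairs.

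For sex, none of the 78 pairs was called by edgeR, against 0.105% of all pairs, and 7 had an unadjusted p under 0.05, against 3.54% of all pairs. DESeq2 called 999 of all pairs, where edgeR called 256. The 2 opioid pairs that DESeq2 called were PNOC in the MO (1.397, adjusted p = 0.0585) and PDYN in the PIT (-2.08, adjusted p = 0.0177). The lowest FDR was 0.218, for PDYN in the PIT, at 1.06 ± 0.89 CPM in females and 4.43 ± 3.41 CPM in males (SD, n = 4 each, log2FC female against male -2.06 ± 0.58). Without animal 7 it was called (-2.07, FDR = 0.0379), and so was OPRK1 in the PIT (-3.55, FDR = 0.0862). In that fit the sex calls over all genes rose from 256 to 2235 pairs.

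**Figure D5:**
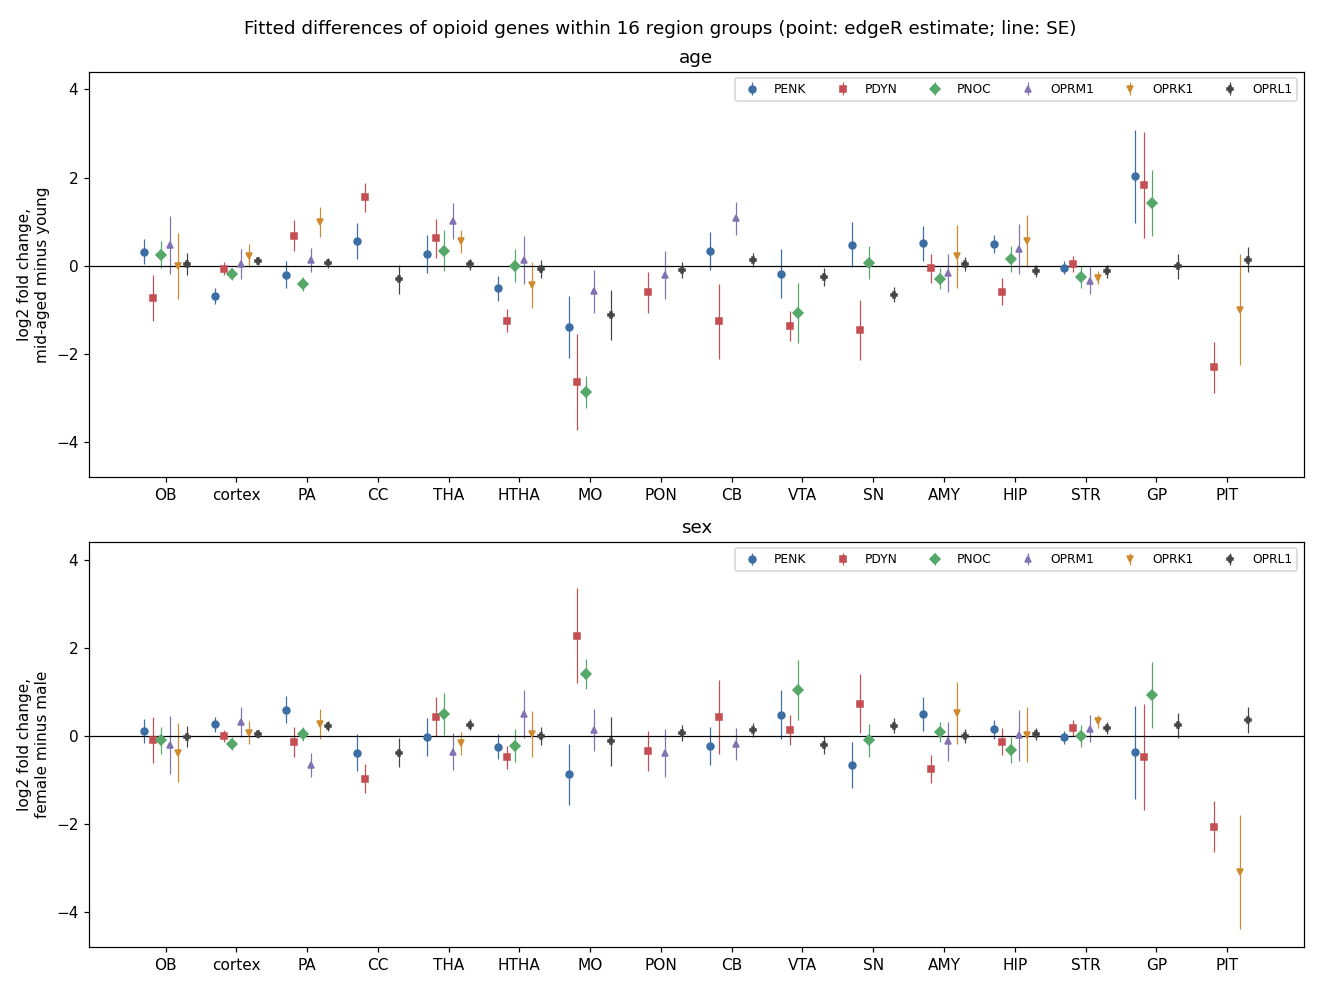
Fitted log2 fold changes with SE (lines) of the opioid genes inside 16 region groups, mid-aged minus young (top) and female minus male (bottom), for the 78 pairs tested in each. PNOC in the MO lies lowest for age (-2.87) and OPRK1 in the PIT lowest for sex (-3.09).

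The genes with the most similar patterns over the 51 sub-regions were taken by Pearson's r of the mean log2(CPM + 1), among 13503 genes. These are descriptions over sub-regions that share animals and libraries. For PENK they were POU3F4 (r = 0.84), HTR1D, DRD3, UPB1 and KCNK2 (0.79), for PDYN HTR4 (0.87), RPRML, DYDC2, CAMKV and PTPN5 (0.86), and for PNOC CDH13 (0.94), CHRNA7, CRHBP, LRFN2 and RGS4 (0.90). For OPRM1 they were LRRTM3 (0.86), DGKI, CACNB4, RACGAP1 and CNTNAP5 (0.79), for OPRK1 KCNA5 (0.83), KISS1R, PD1, MACROD2 and PRKCH (0.76), and for OPRL1 ABHD8 (0.93), C11H12orf43, FBXO44, LCMT1 and MICU3 (0.90). By Spearman's rho only 6 of the 30 genes stayed among the 5 most similar ones by that measure, and with a pseudocount of 0.1 there were 21.

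Among the opioid genes themselves, PENK and PDYN were the most similar pair of precursors (r = 0.65 over 51 sub-regions, 0.59 over the 31 cortical ones and 0.73 over the other 20). PNOC and its receptor OPRL1 had r = 0.66 over all, 0.48 in the cortex and 0.45 elsewhere. PDYN and its receptor OPRK1 had r = 0.44 over all and 0.65 outside the cortex, but -0.31 within it. PENK and OPRM1 had r = 0.40 over all. A precursor and another receptor had r over all from 0.11 (PENK and OPRL1) to 0.61 (PENK and OPRK1). PENK and OPRK1 had r = 0.67 outside the cortex but -0.38 within it, and their Spearman's rho over all was 0.26. These values describe the means of the sub-regions and were not tested.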

How the data were processed

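RNA-seq counts of 51 sub-regions in 8 macaques were analysed. By the study's methods and the submitters' processing notes, the authors trimmed libraries of low read quality with Trim Galore 0.4.4, mapped reads to Mmul 8.0.1 with HISAT2 2.0.5 and counted them on Ensembl 91 genes with HTSeq 0.6.1, and the deposited values are whole counts without normalization. How strand and overlapping genes were handled in counting is not given in the sources used here, so values of overlapping or antisense genes are uncertain. Gene identifiers were paired with symbols by a reference table (17572 genes) and, for 583 more genes, OPRK1 among them, by the study's supplement.

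The opioid genes, the gene lists and the tests were chosen with earlier results of these data known. Counts were summed within an animal for region groups and lobes. They were tested in R 4.3.3 with edgeR 4.0.16 (TMM, filterByExpr, quasi-likelihood F test, Benjamini-Hochberg adjustment over all genes tested), with the animal as a block. The labels tie samples to animals, so same-numbered samples are pairs from 1 animal. Age stage and sex were tested within region groups, each with the other as a covariate. SE is the absolute log2FC over the square root of F. Calls needed FDR < 0.05 (0.1 for age and sex) and a fold above 2. Named genes are the opioid genes, the 5 genes most like each in pattern, and genes of the lists past the threshold. DESeq2 1.42.0, its size factors, a filter of a count above 1 in at least 3 columns, fits with no block or covariate, each animal left out and a pseudocount of 0.1 were the alternatives. Python 3.11.15, numpy 2.4.6, pandas 2.3.3, scipy 1.17.1 and matplotlib 3.10.9 were used, and the tests were checked on simulated data. Totals of 7784678 to 31083490 counts leave OPRK1 and OPRM1 imprecise. The lowest chi-square per degree of freedom between animals of the same sub-region was 8.581, so none of these libraries was a repeat of another. Libraries of different sub-regions were not compared in this way. The 33 ATAC-seq samples and 8 midbrain samples were not used here.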

Additional observations from a re-analysis of the deposited data

Results flagged for a closer look

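Within 144 sets of 8 animals (6 genes in 24 places), 24 single values lay far from the other 7, with a gap over 0.526 of the whole range. Chance sets about 1 in 20 apart among independent sets of normally distributed values. These sets share animals and in part libraries (the CB holds the CBC and CBV, and the STR the PUT), and 23 of the 24 values were the highest of their set, so that rate does not carry over to them. Values are CPM, with the range of the other 7 animals, and the cause was not tested. For PENK this was 15.5 in the CC of animal 3 (others 2.99 to 8.73), 84.7 in the CB of animal 3 (others 20.1 to 48.1), 158 in the VTA of animal 11 (others 26.97 to 84.6), 86.2 in the AMY of animal 6 (others 19.03 to 37.2), 271 in the GP of animal 3 (others 9.43 to 42.5), 9.71 in the PIT of animal 11 (others 0.0904 to 1.17) and 112 in the CBV of animal 3 (others 18.9 to 51.1). For PDYN this was 40.3 in the CC of animal 3 (others 3.06 to 17.9), 109 in the MO of animal 4 (others 0.0815 to 30.3), 84.0 in the GP of animal 3 (others 1.37 to 12.1), 255 in the CA1 of animal 7 (others 72.2 to 126) and 506 in the PUT of animal 4 (others 53.7 to 264). For PNOC this was 35.4 in the MO of animal 4 (others 0.873 to 15.7), 1.54 in the CB of animal 3 (others 0.216 to 0.627), 9.34 in the GP of animal 6 (others 0.851 to 4.75), 1.61 in the PIT of animal 8 (others 0.0673 to 0.667), 1.51 in the CBC of animal 3 (others 0.179 to 0.788) and 1.44 in the CBV of animal 3 (others 0 to 0.379). For OPRM1 this was 7.38 in the CBV of animal 3 (others 1.64 to 4.18) and 12.3 in the PUT of animal 7 (others 1.64 to 6.26). For OPRK1 this was 0.624 in the cortex of animal 4 (others 0.990 to 1.29) and 1.33 in the CBC of animal 3 (others 0 to 0.415). For OPRL1 this was 60.1 in the STR of animal 4 (others 37.2 to 45.1) and 48.9 in the PUT of animal 4 (others 24.4 to 31.4).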

How the results depend on the processing

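Among the recomputed log2FC of the opioid genes, 1194 kept their direction and call, 24 lost their call, 8 gained one and 22 uncalled ones changed sign. Causes were not tested.

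With the filter of a count above 1 in at least 3 columns, OPRL1 turned to -0.059 (AMY against cortex) and -0.028 (THA against cortex) and OPRM1 to -0.076 (CB against cortex). The PDYN call in SN against VTA was lost (FDR = 0.0630), 1 opioid gene was called between the DG and CA fields, and calls over all genes became 3189 for HIP against cortex (2080 before), 732 for the DG (471), 5 for CA1 against CA3 (3), 183 for the limbic against the frontal lobe (112) and 1205 for the ACb (762). With no replicate block, SN against VTA kept 2 opioid calls, and calls over all genes were 1 for CA1 against CA3, 75 for the temporal (135) and 52 for the limbic lobe; the pairing by animal changed no other opioid call except OPRM1 in CN against PUT. With DESeq2, OPRM1 in the limbic lobe was at -0.00277, CA1 against CA3 gave 19 calls, age gave 5 opioid pairs and 801 of all pairs (40), and sex 2 and 999 (256). Without a covariate, age gave 13 of all pairs.

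Leaving out each animal in turn, the number of opioid genes called ranged from 0 to 1 for AMY against cortex, from 2 to 4 for SN against VTA, from 0 to 1 for CA1 against CA3, from 0 to 1 for the limbic lobe, from 0 to 1 for age and from 0 to 2 for sex. Calls over all genes ranged from 0 (without animal 7) to 24 (without animal 11) for CA1 against CA3, from 3 (without animal 2) to 927 (without animal 7) for age and from 229 to 2235 (without animal 7) for sex. The log2FC ranged from -0.25 to 0.12 for OPRM1 (CB against cortex), from -0.13 to 0.028 for OPRL1 (SN against VTA), from -0.12 to 0.045 for PDYN (DG), from -0.15 to 0.12 for PNOC (CA1 against CA3), from -0.057 to 0.11 for OPRM1 (limbic lobe), from -0.15 to 0.15 for PNOC (ACb) and from -0.12 to 0.22 for OPRK1 (ACb). By Spearman's rho 6 of the 30 most similar genes were shared.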
